A study of Mus musculus with 16 samples.

Results

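The 41 genes described here copy DNA or prepare a cell to do so: Mcm2 to Mcm7 and the other origin, fork and nucleotide supply genes, with the E2F factors that switch many of them on. They were taken by name from the deposited count table, and 41 of 41 were found among its 22869 genes. The study compared pancreatic β cells, the insulin-secreting cells of the islet, from old and young mice, sorted live by flow cytometry from isolated islets. RNA came from MIP-GFP/Bl6 mice, in which green fluorescent protein marks β cells through the insulin promoter, as 3 old pools aged 15, 16 and 17 months and 2 young pools aged 4 to 6 weeks. The design text gives 5 to 10 mice for each RNA pool and names more young RNA replicas than the 2 analysed here. Chromatin and methylation came from C57Bl6 mice labelled 16 to 18 months (old) or 4 to 6 weeks (young), with 1 deposited list or library for each mark and age and H3K27ac in young cells alone. The old H3K27me3 list may rest on 2 replicas, each a pool of 4 to 7 mice, since the design text names them. The same text gives 18 to 22 months for the old methylation pool, which differs from its label.

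A cell licenses its origins in G1 by loading the MCM helicase with the help of ORC, CDC6 and CDT1, and activates the helicase in S phase with CDC45 and the GINS complex. DNA polymerases α, δ and ε then copy the strands behind it, with the sliding clamp PCNA and its loader RFC. E2F1 and E2F2 switch on many of these genes when cyclin E with CDK2 inactivates the retinoblastoma protein, and E2F7 and E2F8 repress them later in the cycle. Mouse β cells divide often in the first weeks of life and seldom in old age.

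Promoter sequence was looked at before RNA, because E2F proteins bind short GC-rich sites close to the start of their targets. RefSeq promoter windows of build GRCm38.p6, from 250 bases before to 50 bases after the start, were found for 33 of the 41 genes; Prim2, Mcm4, Pole, Gins4, Gins1, Gins2, Ccne2 and Gmnn had none in the table. The letters TTTCCCGC, TTTCGCGC, TTTGCCGC or TTTGGCGC were searched on both strands, and matches may overlap. They occurred in the windows of 15 of the 33 genes (45.5%), against 4.18% of windows of genes tested for RNA and 2.6% of all windows. The letters CCAAT, bound by NF-Y, occurred in 57.6% of the 33 windows and in 42.4% of windows of tested genes. The CHR letters TTTGAA or TTCGAA, typical of genes expressed late in the cycle, occurred in 18.2% of the 33 windows, close to the 16.4% of tested genes. In 16 mitosis genes with a window the order was the other way round, with E2F letters in 6.25% and CHR letters in 75.0%. A match is a run of letters and not a measured site.

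The 200 bases before the start are shown for 5 genes that hold E2F letters there and had more RNA in both young libraries than in any old one. They are also shown for E2f8, which had no RNA count in any old library and no such letters in its window. In all, 9 genes hold E2F letters in that stretch. Of those not shown, Mcm7 had the same order of RNA, whereas RNA of Cdk2, Pola1 and Rfc3 overlapped between the ages. Capitals mark the E2F letters. Mcm5 lies on chr8:75109309-75109508 (plus strand), Mcm6 on chr1:128359706-128359905 (minus), Orc1 on chr4:108579254-108579453 (plus), Cdc6 on chr11:98907951-98908150 (plus), E2f7 on chr10:110745239-110745438 (plus) and E2f8 on chr7:48881597-48881796 (minus).
Mcm5: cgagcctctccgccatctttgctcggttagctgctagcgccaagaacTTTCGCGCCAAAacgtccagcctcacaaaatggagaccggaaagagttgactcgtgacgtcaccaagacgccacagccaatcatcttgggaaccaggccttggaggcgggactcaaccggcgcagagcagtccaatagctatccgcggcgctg
Mcm6: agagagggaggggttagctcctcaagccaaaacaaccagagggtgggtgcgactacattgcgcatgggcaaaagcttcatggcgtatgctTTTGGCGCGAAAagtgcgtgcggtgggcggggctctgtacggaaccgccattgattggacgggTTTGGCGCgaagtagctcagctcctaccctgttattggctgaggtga
Orc1: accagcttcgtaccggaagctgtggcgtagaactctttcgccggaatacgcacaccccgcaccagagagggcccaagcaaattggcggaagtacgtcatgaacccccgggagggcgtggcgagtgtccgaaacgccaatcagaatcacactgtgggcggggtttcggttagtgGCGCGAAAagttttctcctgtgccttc
Cdc6: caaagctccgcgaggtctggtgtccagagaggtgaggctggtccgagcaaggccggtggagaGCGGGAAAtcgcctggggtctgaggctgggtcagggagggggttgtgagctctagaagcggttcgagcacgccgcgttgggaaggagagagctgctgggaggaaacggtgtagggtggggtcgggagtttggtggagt
E2f7: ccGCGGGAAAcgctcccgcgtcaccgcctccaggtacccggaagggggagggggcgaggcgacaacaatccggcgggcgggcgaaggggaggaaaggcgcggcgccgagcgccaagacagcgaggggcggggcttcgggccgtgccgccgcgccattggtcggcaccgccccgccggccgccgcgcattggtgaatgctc
E2f8: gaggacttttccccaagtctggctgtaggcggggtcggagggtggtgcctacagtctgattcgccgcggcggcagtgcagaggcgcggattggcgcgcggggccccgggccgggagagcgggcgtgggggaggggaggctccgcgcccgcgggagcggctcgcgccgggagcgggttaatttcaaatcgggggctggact
In Mcm5 a run of capitals holds a pair of overlapping matches that start 153 and 149 bases before the gene. Mcm6, another helicase subunit, has a pair of the same kind at 110 and 106 bases and a separate match at 47 bases before the start. Orc1, which encodes the largest subunit of the origin recognition complex, has its match closest to the start of these 5 genes, 27 bases away. The match of Cdc6, the loader of the helicase, begins 138 bases before the start, and that of the repressor E2f7 begins 198 bases before it.

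RNA was measured as read counts per gene. Gene counts came to 26670338, 33562820 and 23559906 in the old libraries and to 6377620 and 12892122 in the young ones, whose columns carry no replicate number; the pair of young values is given for the shallower and then for the deeper library. Levels are given as counts scaled to library size with TMM factors (CPM). Where genes are compared with each other, they are given as counts per transcript length, scaled to the same total in each library without TMM factors (TPM). The test is edgeR's quasi-likelihood test over 15544 genes with Benjamini-Hochberg adjustment, and a gene was called at an adjusted p under 0.05. All 41 genes passed the filter on low counts. The filter asked for about 0.424 CPM in 2 libraries; Orc1, Cdc6, Cdt1, Gins1, Pole2 and E2f8 reached that level in fewer than 2 old libraries, and Gmnn and Rfc4 in fewer than 2 young ones. Nothing in the labels says whether the libraries of one age came from separate sorts, so p-values measure the spread between these pools.

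Together the 41 genes took 0.0197, 0.0178 and 0.0191% of gene counts in the old libraries, against 0.0391 and 0.0444% in the young ones. All 3 old shares lay below both young shares. In bulk RNA, fewer cells of a type and less RNA per cell cannot be told apart. The median of the 41 log2 changes was -1.20, beside -0.05 over all tested genes. The estimate was negative for 31 genes and positive for 10. The negative ones include Orc1, Cdc6, Cdt1, Gins1, Pole2 and E2f8, which passed the filter on low counts only because of the young libraries. Gmnn and Rfc4, with positive estimates, passed it only because of the old ones.

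Single genes seldom passed the test. It called 2 of the 41 genes lower in old cells, Pole and E2f8, the latter kept by the filter on low counts only through the young libraries. Of all tested genes it called 7.93% lower. It called none higher, where 3.17% of all tested genes were, and at an unadjusted p under 0.05 it found 9 lower (18.1% of all tested genes) and 0 higher. DESeq2 called 9 lower, where it called 15.7% of all tested genes lower, and 0 higher, where it called 7.17% of them higher. The 9 were E2f8, Pole, Cdc6, E2f7, Gins1, Mcm2, Mcm7, Rfc5 and Tyms. Cdc6 and Gins1 were kept by the filter in the same way as E2f8. Leaving out the deeper young library gave 8 lower calls (18.2% of all genes then tested) and a median of -0.59; leaving out the shallower one gave 4 (12.1%). The 8 were E2f8, Pole, Pole2, Cdc6, Gins1, Mcm2, Mcm7 and Tyms, and the 4 were E2f8, Pole, E2f7 and Lig1. Leaving out old library 1 or 2 left E2f8 as the single call, where 1.95 and 2.63% of all genes then tested were called lower, and leaving out old library 3 left both calls (1.81%).

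In 21 of the 41 genes both young libraries lay above all 3 old ones, where 24.5% of all tested genes did so. The 21 include Orc1, Cdc6, Cdt1, Gins1, Pole2 and E2f8, which passed the filter on low counts only because of the young libraries. A gene kept in that way tends to have young above old, so these 6 add no support. They also enter the counts and medians by role, letters and mark below. In 3 genes, Pcna, Fen1 and E2f1, all old libraries lay above both young ones, where 24.4% of all tested genes did so. The other 17 overlapped. The young libraries differed from each other: 29 genes were higher in the deeper and 12 in the shallower library. The plot of CPM by library shows this spread.

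**Figure D1:**
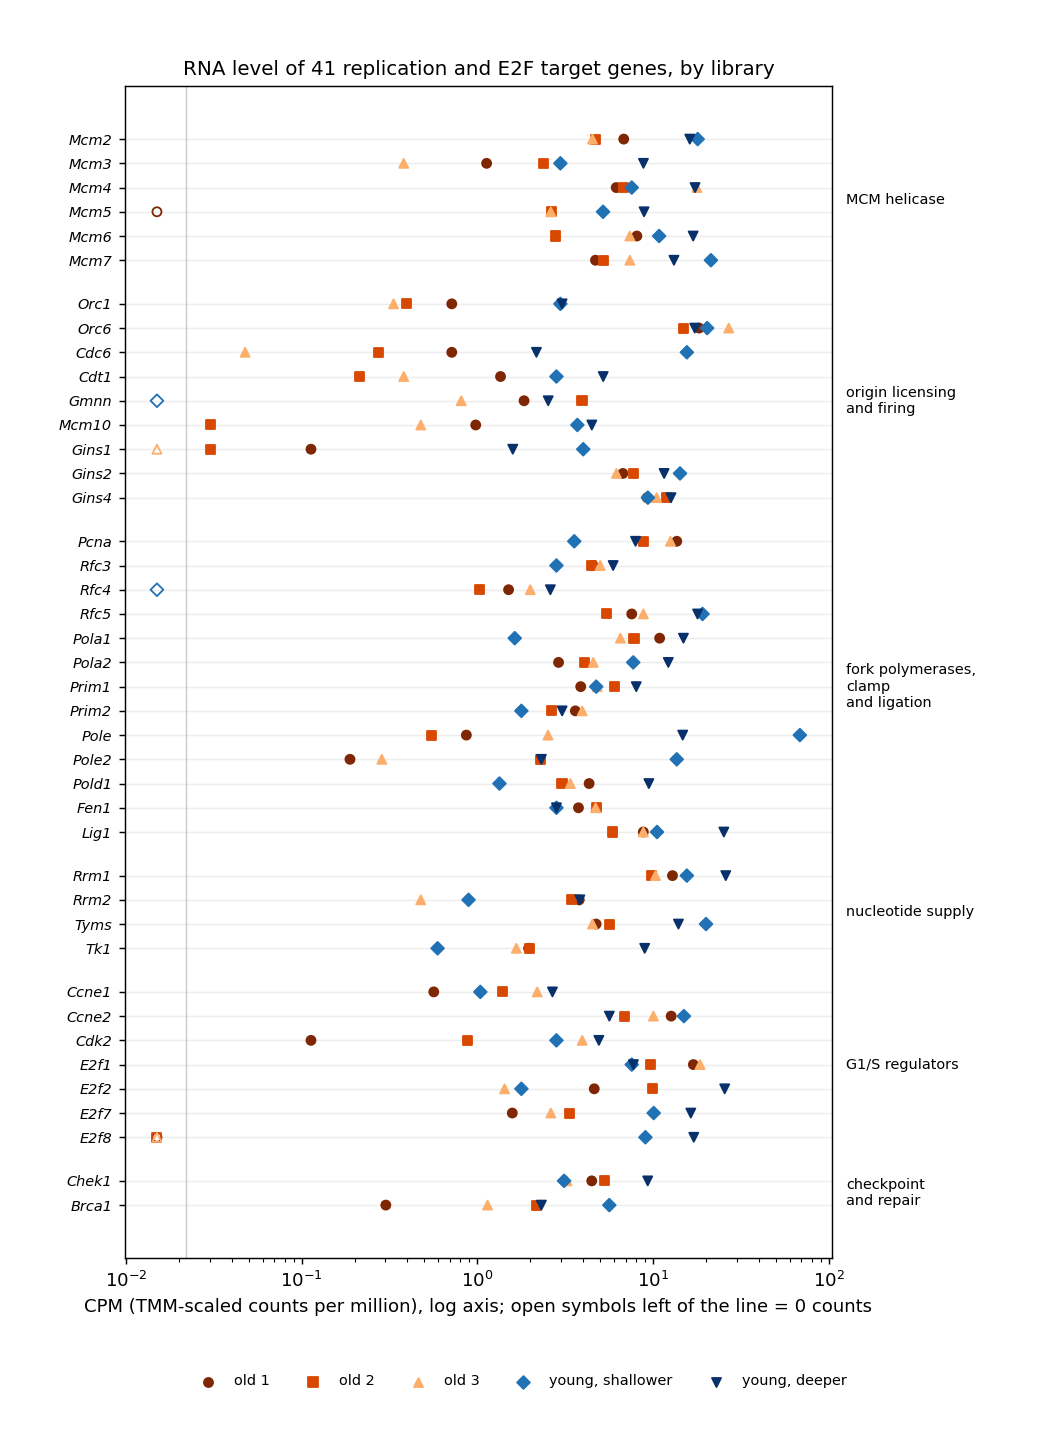
RNA level of each of the 41 genes (rows, grouped by role) in 3 old libraries (brown to orange) and 2 young libraries (blue), in TMM-scaled CPM on a log axis. Open symbols left of the line had 0 counts; E2f8 had none in any old library, and in 21 genes both blue symbols lie to the right of all old symbols.

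Libraries also differed in markers of other cells. Ins1 had 205549 to 318163 CPM in all 5 libraries, and 3 of 10 β-cell markers were called higher in old cells and none lower. Summed α-cell markers had 902 to 1831 CPM in old libraries, against 2005 and 31670 CPM in young libraries, with 1 of 5 called lower. Summed δ- and PP-cell markers had 229 to 473 CPM in old and 3193 and 9545 CPM in young libraries (5 of 5 called lower), acinar markers 84.1 to 121 CPM and 1386 and 2079 CPM (8 of 8), and duct markers 224 to 252 CPM and 446 and 320 CPM (4 of 7). The other 3 duct markers, Epcam, Krt7 and Cftr, went the other way, with log2 changes of 0.87, 0.72 and 0.45. None of them was called by edgeR. Stellate and fibroblast markers had 5.62 to 9.57 CPM in old and 320 and 3543 CPM in young libraries (8 of 8 called lower), endothelial markers 46.9 to 75.9 CPM and 454 and 742 CPM (7 of 7), and macrophage and lymphocyte markers 21.5 to 36.0 CPM and 160 and 253 CPM (3 of 8). The acinar genes Amy2a5 and Ptf1a had no count in any old library, and Ptf1a none in the deeper young one. The part of these cells in the lower replication genes was not tested. The 41 genes summed to 198, 182 and 214 CPM in old and 371 and 414 CPM in young libraries, while single genes such as Pole, Cdc6 and E2f2 differed widely between the young libraries.

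The MCM helicase unwinds DNA at the fork as a ring of the 6 subunits Mcm2 to Mcm7. All 6 estimates were negative, with a median log2 change of -1.63, and none was called by edgeR (2 of 6 at an unadjusted p under 0.05). Mcm2 had 6.82, 4.71 and 4.53 CPM in old libraries, against 18.0 and 16.2 CPM in young libraries. Both young values lay far above every old one, with a log2 change of -1.67 (SE 0.55, adjusted p = 0.087). Mcm7 had 4.71, 5.22 and 7.39 CPM in old and 21.4 and 13.2 CPM in young libraries, again without overlap (log2 change -1.58, SE 0.57, adjusted p = 0.11). DESeq2 called both, at adjusted p of 0.0081 for Mcm2 and 0.021 for Mcm7.

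The other subunits varied more between pools. Mcm3 had 1.13, 2.37 and 0.381 CPM in old and 2.97 and 8.83 CPM in young libraries, so the highest old pool came close to the shallower young one. Mcm5 had no count in old library 1, 2.64 and 2.62 CPM in the other old libraries, and 5.20 and 8.90 CPM in young ones. Mcm6 had 8.10, 2.79 and 7.39 CPM in old and 10.8 and 16.9 CPM in young libraries. These 3 subunits had the same order of groups as Mcm2, with SEs of 1.12, 1.54 and 0.67 on the log2 scale. Mcm4 was the exception, with 6.18, 6.83 and 17.8 CPM in old and 7.57 and 17.4 CPM in young libraries. Old library 3 held as much Mcm4 as the deeper young library, and its log2 change was -0.29 (SE 0.69, adjusted p = 0.82). Per length, Mcm4 was the most abundant subunit in old cells (4.15 ± 2.17 TPM, SD, n = 3) and Mcm7 in young cells (12.5 ± 3.43 TPM, SD, n = 2).

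Origin licensing and firing genes had a median log2 change of -2.62 over 9 genes, none of them called by edgeR. In 6 of the 9 both young libraries lay above all old ones, where 24.5% of all tested genes did so. The 6 include Orc1, Cdc6, Cdt1 and Gins1, which passed the filter only because of the young libraries and add no support. The median is the value of Cdt1 itself. Orc6, a small subunit of the origin recognition complex, had the highest level per length of the 41 genes in old cells (17.9 ± 3.81 TPM in old and 19.7 ± 0.985 TPM in young cells). It had 18.3, 15.0 and 27.02 CPM in old and 20.3 and 17.3 CPM in young libraries, and the groups overlapped (log2 change 0.10, SE 0.44, adjusted p = 0.91). Orc1, the ATPase subunit of the same complex, had 0.716, 0.395 and 0.334 CPM in old and 2.97 and 3.04 CPM in young libraries. The young libraries agreed closely for Orc1 and lay above every old pool, although 39 counts in all over the old libraries left an SE of 1.20 (log2 change -2.63, adjusted p = 0.19).

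Gins2, a subunit of the GINS complex, had the highest level per length in young cells (10.0 ± 1.90 TPM in old and 21.5 ± 1.77 TPM in young cells). Gins2 shares 118 bases with Gse1, a gene on the opposite strand with more counts in every library. It had 6.74, 7.77 and 6.20 CPM in old and 14.3 and 11.6 CPM in young libraries, with no overlap (log2 change -0.90, SE 0.56, adjusted p = 0.32). Gins1 belongs to the same complex and was nearly undetected in old cells, with 3, 1 and 0 counts there and 27 and 22 counts in the much shallower young libraries. Its fitted log2 change was -5.67 (SE 1.68, adjusted p = 0.065), and DESeq2 called it (-5.98, adjusted p = 0.0093). Gins4 overlapped, with 9.27, 11.9 and 10.5 CPM in old and 9.36 and 12.7 CPM in young libraries. Whether these subunits differ from each other in their change was not tested.

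Cdc6 showed a steep but uneven difference. It had 0.716, 0.273 and 0.0477 CPM in old libraries, against 15.6 and 2.17 CPM in young libraries (log2 change -4.64, SE 1.37, adjusted p = 0.065). DESeq2 called it (-4.82, adjusted p = 0.0032), whereas without the shallower young library the edgeR log2 change was -2.62 (adjusted p = 0.35). The young values differed from each other by more than the deeper young value differed from the highest old one. Cdt1, its partner in loading, had 1.36, 0.213 and 0.381 CPM in old and 2.82 and 5.21 CPM in young libraries. Geminin (Gmnn), the inhibitor of CDT1, had 1.85, 3.95 and 0.810 CPM in old libraries, against 0 and 2.53 CPM in young libraries. Mcm10, which helps start the fork, had 0.979, 0.0304 and 0.477 CPM in old and 3.71 and 4.49 CPM in young libraries.

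Fork polymerases, clamp and ligation genes were mixed in direction: the median log2 change of the 13 genes was -0.38, 7 estimates were negative and 6 positive. Pole, which encodes the catalytic subunit of DNA polymerase ε and lies on chr5:110715338-110766472 (mm9, plus strand), was called lower. It had 0.866, 0.546 and 2.53 CPM in old libraries, against 68.6 and 14.8 CPM in young libraries. Both young values exceeded every old one, and the young values themselves differed 4.65-fold. The log2 change was -5.00 (SE 0.88, adjusted p = 0.016); without old library 1 or 2 the adjusted p was 0.069 or 0.055, and without the shallower young library the log2 change was -3.49 (adjusted p = 0.024). Pole2, the second subunit of the same enzyme, had 0.188, 2.28 and 0.286 CPM in old and 13.7 and 2.32 CPM in young libraries, so the deeper young library was level with old library 2 (log2 change -3.10, SE 1.36, adjusted p = 0.17). With 1 library left out its log2 change ran from -5.07 without old library 2 to -1.32 without the shallower young library.

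Pcna went the other way, with 13.7, 8.80 and 12.6 CPM in old libraries, against 3.56 and 7.96 CPM in young ones. The groups did not overlap, and the log2 change of 1.01 (SE 0.65) had an adjusted p of 0.34. Per length it was the second most abundant of the 41 genes in old cells (14.0 ± 3.37 TPM) and stood eleventh in young cells (8.16 ± 4.85 TPM). Fen1, which trims the flap of each Okazaki fragment, had 3.77, 4.80 and 4.72 CPM in old and 2.82 and 2.82 CPM in young libraries (log2 change 0.65, SE 0.87, adjusted p = 0.66). Rfc5, a subunit of the clamp loader, was the most abundant fork gene per length in young cells (6.28 ± 1.16 TPM in old and 18.7 ± 0.350 TPM in young cells). It had 7.57, 5.46 and 8.82 CPM in old and 19.2 and 18.0 CPM in young libraries, well apart (log2 change -1.35, SE 0.51, adjusted p = 0.12). DESeq2 called Rfc5 (adjusted p = 0.026).

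Rfc3 and Rfc4, which belong to the same loader as Rfc5, overlapped between the ages. Rfc3 had 4.56, 4.46 and 5.00 CPM in old and 2.82 and 5.94 CPM in young libraries. Rfc4 shares 185 bases with Eif4a2 on the opposite strand, and Lig1, given below, shares 1409 bases with 6330408A02Rik in the same way. The sources used here do not say if the counting used strand. Polymerase α and primase start each new strand: Pola2 had 2.90 to 4.58 CPM in old and 7.72 and 12.2 CPM in young libraries, without overlap, whereas Pola1, Prim1 and Prim2 overlapped. Pola1 in particular had 6.53 to 10.9 CPM in old libraries, against 1.63 and 14.9 CPM in young libraries. Pold1, the catalytic subunit of polymerase δ, showed the same pattern, with 3.04 to 4.33 CPM in old and 1.34 and 9.48 CPM in young libraries. Lig1, the ligase that joins Okazaki fragments, had 5.92 to 8.82 CPM in old and 10.5 and 25.3 CPM in young libraries (log2 change -1.20, SE 0.58, adjusted p = 0.21). Lig1 was called without the shallower young library (-1.69, adjusted p = 0.028) and had a log2 change of -0.42 without the deeper one.

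**Figure D2:**
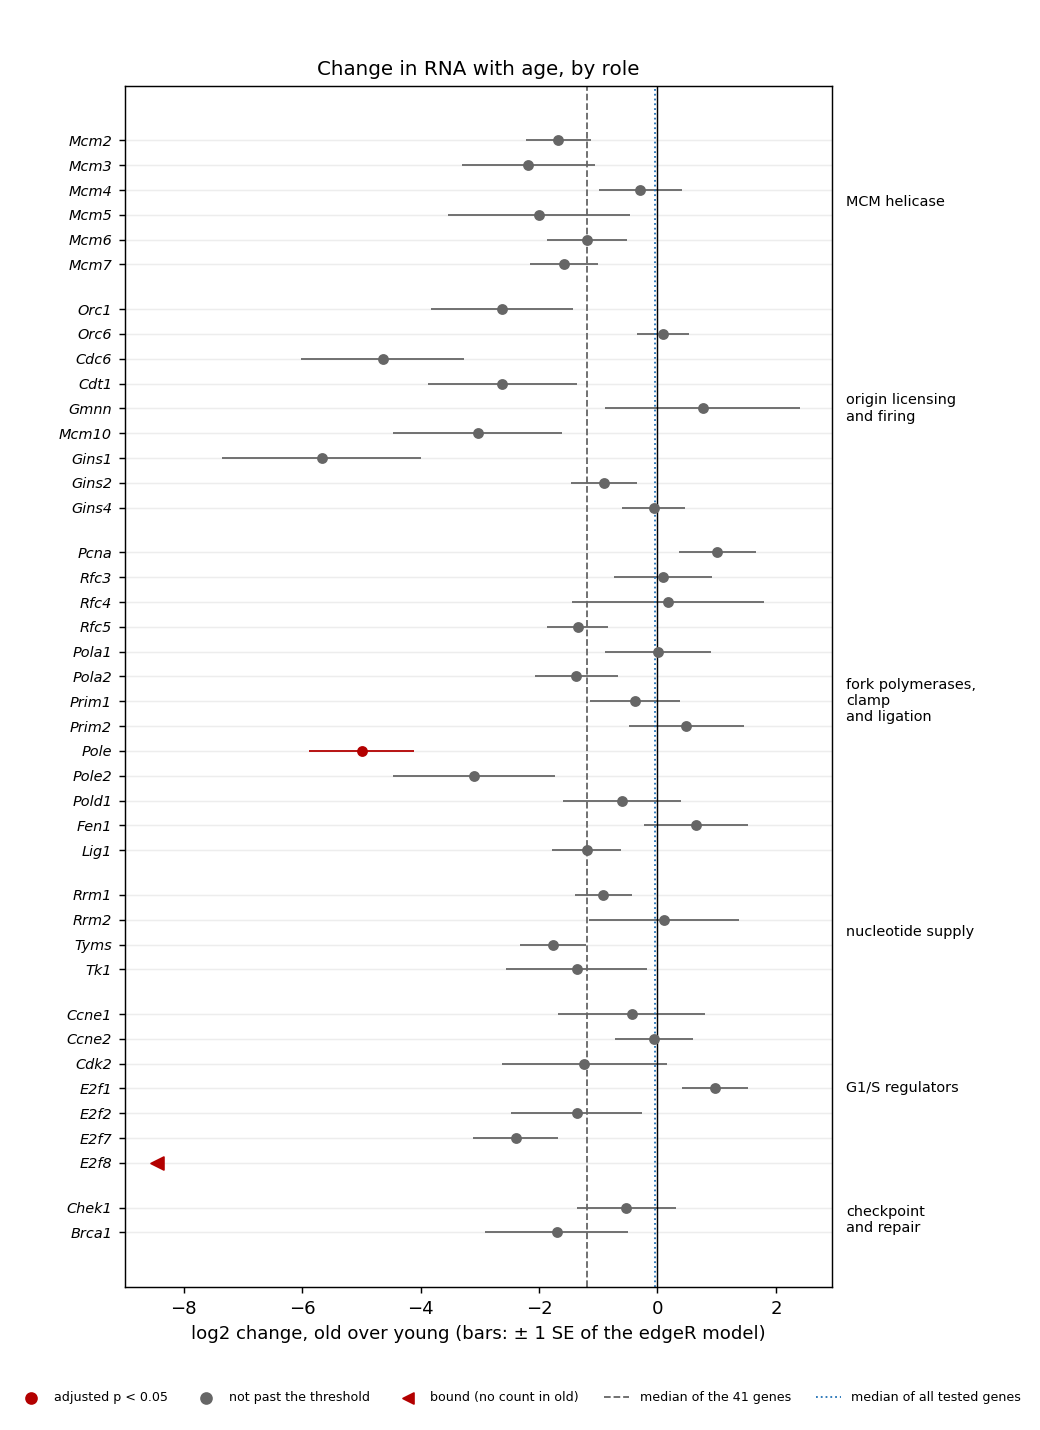
Log2 change in RNA, old over young, of each of the 41 genes by role, with bars of 1 SE of the edgeR model; red marks an adjusted p under 0.05 and the arrow marks E2f8 at its bound. Most points lie left of 0, the dashed line marks their median of -1.20, and 2 genes are red.

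Nucleotide supply genes had a median log2 change of -1.14 over 4 genes, none of them called by edgeR. Rrm1, the large subunit of ribonucleotide reductase, was the most abundant of them per length at both ages (4.18 ± 0.927 TPM in old and 9.17 ± 3.79 TPM in young cells). It had 12.9, 9.87 and 10.3 CPM in old and 15.6 and 26.0 CPM in young libraries, without overlap (log2 change -0.91, SE 0.48, adjusted p = 0.24). Rrm2, the small subunit that is made in S phase, had 3.80, 3.43 and 0.477 CPM in old and 0.891 and 3.84 CPM in young libraries, with overlap. Tyms, which makes thymidylate, had 4.75, 5.68 and 4.53 CPM in old and 20.1 and 14.0 CPM in young libraries. Its groups were well apart (log2 change -1.77, SE 0.56, adjusted p = 0.077), and DESeq2 called it (adjusted p = 0.0051). Thymidine kinase (Tk1) had 1.67 to 1.97 CPM in old libraries, against 0.594 and 8.98 CPM in young libraries.

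Regulators of entry into S phase held the clearest difference. E2f8, on chr7:56121799-56136411 (mm9, minus strand), had 0, 0 and 0 counts in the old libraries, against 61 and 236 counts in the young ones (9.06 and 17.1 CPM). Old cells were taken to lie below a bound of 0.0373 CPM, the level of 3 counts over the 3 old libraries together. The young mean of 13.1 CPM was 351-fold above that bound, which covers counting error only and not the spread between pools. E2f8 was called lower by edgeR (adjusted p = 0.011). E2f8 passed the filter on low counts only because of the young libraries, so calls of it add no support. It was called under each of the 9 alternatives tried. E2f7, the other atypical E2F, had 1.58, 3.37 and 2.62 CPM in old and 10.1 and 16.4 CPM in young libraries. It was not called by edgeR (log2 change -2.39, SE 0.72, adjusted p = 0.067) and was called by DESeq2 (adjusted p = 0.0036).

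The activator E2f1 was the most abundant regulator per length in old cells (9.14 ± 2.65 TPM in old and 5.45 ± 0.438 TPM in young cells). It had 17.0, 9.65 and 18.5 CPM in old and 7.57 and 7.74 CPM in young libraries, all old pools above both young ones (log2 change 0.97, SE 0.56, adjusted p = 0.28). The activator E2f2 had 4.63, 9.93 and 1.43 CPM in old libraries, against 1.78 and 25.6 CPM in young libraries. Cyclin E is encoded by Ccne1 and Ccne2 and activates CDK2. Ccne1 had 0.565 to 2.19 CPM in old and 1.04 and 2.68 CPM in young libraries. Ccne2 shares 1852 bases with Ints8 on the opposite strand. It had 6.89 to 12.7 CPM in old and 15.0 and 5.65 CPM in young libraries. Cdk2 had 0.113 to 3.96 CPM in old and 2.82 and 4.92 CPM in young libraries. None of Ccne1, Ccne2 and Cdk2 separated the ages.

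Of the checkpoint and repair genes, Chek1, the kinase that restrains cells with stalled forks, was the more abundant per length at both ages (1.96 ± 0.610 TPM in old and 3.29 ± 2.48 TPM in young cells). It had 4.48, 5.31 and 3.24 CPM in old and 3.12 and 9.34 CPM in young libraries, which overlapped (log2 change -0.52, SE 0.84, adjusted p = 0.72). Brca1, needed for repair by recombination, had 0.301, 2.19 and 1.14 CPM in old and 5.64 and 2.32 CPM in young libraries. Old library 2 came close to the deeper young library (log2 change -1.70, SE 1.21, adjusted p = 0.38).

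As a group the 41 genes were scarce at both ages. The median of their mean levels was 2.08 TPM in old cells and 5.45 TPM in young cells, beside 8.42 and 10.4 TPM over tested genes, and 36 of the 41 genes lay under the median of tested genes at each age. Orc6, Pcna, Gins4, Gins2 and E2f1 were the 5 most abundant in old cells, and Gins2, Orc6, Rfc5, Gins4 and Mcm7 in young cells. E2f8, Gins1, Cdc6, Mcm10 and Orc1 were the 5 lowest in old cells. In young cells E2f8 ranked 18 of 41.

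Related genes gave a scale for these changes. Of 39 other replication genes tested, 1 was called lower and 0 higher, with a median log2 change of -0.23. The one called was Asf1b, a histone chaperone, with 0.351 ± 0.293 CPM in old (SD, n = 3) and 13.5 ± 7.40 CPM in young cells (SD, n = 2; log2 change -5.25, edgeR adjusted p = 0.030). Of 15 E2F partners and pocket proteins, none was called by edgeR, 1 had an unadjusted p under 0.05, and the median log2 change was 0.10. Of 19 mitosis genes tested, 9 were called lower and 0 higher, with a median log2 change of -4.72. In 16 of the 19 both young libraries lay above all old ones. Over all tested genes 7.93% were called lower, 3.17% were called higher and 24.5% had young above old. Asf1b and the called mitosis genes Bub1, Ccnb2, Cdc20, Nusap1 and Ttk passed the filter on low counts only because of the young libraries. Aurkb, Cenpe, Plk1 and Tpx2, not called, passed in the same way, and none of these genes adds support. Besides the proliferation marker Mki67, the mitosis genes summed to 42.9, 47.5 and 45.2 CPM in old and 220 and 314 CPM in young libraries. Whether the lists differ from each other was not tested.

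**Figure D3:**
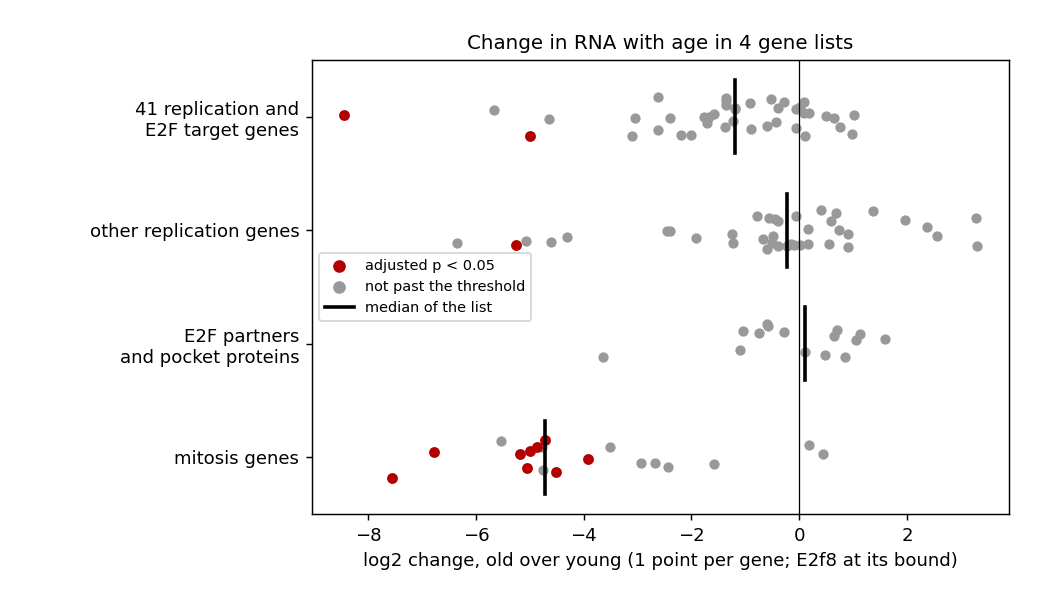
Log2 change in RNA, old over young, of each gene of 4 lists (rows), with red for an adjusted p under 0.05 and a bar at the median of each list; E2f8 is drawn at its bound. The medians are -1.20 for the 41 genes, -0.23 for other replication genes, 0.10 for E2F partners and pocket proteins and -4.72 for mitosis genes.

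The E2F letters can be set beside the RNA without a test. Among the 15 genes with the letters, 10 had both young libraries above all old ones and none the reverse, with a median log2 change of -1.58. Among the 18 genes with a window but no such letters, 8 had both young libraries above all old ones and 3 the reverse, with a median of -0.72. Orc1, Cdc6, Cdt1 and Pole2 with the letters, and E2f8 without, passed the filter on low counts only because of the young libraries. Genes with the letters were the scarcer ones, with a median of 0.933 TPM in old and 3.66 TPM in young cells, against 2.22 TPM in old and 6.31 TPM in young cells for genes without.

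Methylation at the starts of the 41 genes was low at both ages. CpGs with at least 5 reads in both samples, within 500 bases of the start of the most counted transcript, were summed, and every gene had enough of them, with a median of 63 CpGs. The median promoter was methylated at 5.20% in old and 6.23% in young cells, and the median difference, old minus young, was -0.15 points. Methylation was under 10% in 38 of 41 promoters in old and 34 in young cells, beside 72.2% and 69.4% of promoters of tested genes. With 1 library per age there is no replicate check, and intervals below are 95% Wilson intervals that cover counting error only. Fisher's exact test on the summed calls compares these libraries and not the ages; it separated 32 of the 41 promoters, and 57.6% of all promoters, in either direction.

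A difference of 10 points or more was found at 1 of the 41 promoters, lower in old cells, where 5.34% of all promoters were lower and 4.58% higher by that much. It was the promoter of Prim1, the catalytic subunit of primase on chr10:127452271-127467086 (mm9, plus strand), with 2.10% in old cells (1.23 to 3.57, 618 calls), against 16.8% in young cells (13.8 to 20.4, 488 calls). The young calls were not spread evenly over its 24 CpGs. From 53 to 132 bases after the start, 6 CpGs ranged from 30.6 to 82.4% in young cells, at 16 to 36 reads each, and the same 6 had no methylated read in old cells, at 20 to 35 reads each. Neighbouring CpGs share reads, so these 6 are not independent. RNA of Prim1 overlapped between the ages, with 3.88, 6.04 and 4.81 CPM in old and 4.75 and 8.03 CPM in young libraries.

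The next differences were smaller and also lower in old cells. Pole2 had 6.03% in old and 13.7% in young cells, Gins4 5.20% and 12.2%, Prim2 4.56% and 11.5%, and Mcm10 3.19% and 9.63%. At these starts neither age went beyond 13.7%. Mcm4 and Rrm2 led in the other direction, at 8.19% in old and 2.92% in young cells for Mcm4 and at 7.77% and 2.75% for Rrm2. E2f8 and Pole, the genes called in RNA, differed little in promoter methylation. E2f8 had 5.63% in old (4.95 to 6.39) and 6.74% in young cells (6.18 to 7.35), and Pole had 5.79% in old (5.15 to 6.49) and 6.88% in young cells (6.23 to 7.59).

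Lig1 was methylated at its most counted transcript, with 92.8% in old and 92.3% in young cells over 14 CpGs. The 2 other annotated Lig1 starts had 8.96% and 7.77% in old and 8.48% and 7.63% in young cells. Away from the starts the 41 genes were highly methylated, at medians of 79.4% in old and 82.5% in young cells from 1 to 5 kb upstream and of 88.4% and 89.0% in the gene body. Within 500 bases after the start the mean over CpGs, each weighted alike, was 5.58% in old and 6.19% in young cells. Over tested genes it was 8.29% and 8.57%.

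H3K27me3, the mark of Polycomb repression, reached the starts of 13 of the 41 genes in the old list and of 3 in the young list, counting regions within 1 kb. The share was 31.7% in old cells, near the 36.8% of tested genes, and 7.32% in young cells, under the 21.4% of tested genes. Over all gene starts the old list marked 41.5% and the young list 27.9%. The old list is the larger one, with 38007 regions over 649 Mb against 31187 regions over 452 Mb, and the lists were called separately. A difference between the lists at a gene is therefore a description and was not tested.

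E2f8 and Rrm2 had H3K27me3 at both ages. At E2f8 the old region spans chr7:56117001-56160000 (43.0 kb, mm9) and the young one chr7:56133001-56165000 (32.0 kb), and both cover its start. By the authors' score the old E2f8 region ranked 4961 of 38007 and the young one 2023 of 31187. Ranks in lists that were called separately do not measure a change between the ages. Cdk2, Cdt1, E2f2, E2f7, Mcm2, Mcm3, Pola1, Pola2, Pold1, Pole2 and Tk1 had a region in the old list alone, 11 of 41 starts, where 19.2% of tested genes did. Young regions lay 2521, 4707 and 4816 bases from the starts of E2f7, Mcm3 and Pold1, outside the 1 kb limit. The old regions at Cdk2 and Pole2 spanned 5.0 kb each, those at Cdt1 and Tk1 6.0 kb, that at E2f7 8.0 kb and that at E2f2 12.0 kb. Broader old regions spanned 24.0 kb at Pola1, 34.0 kb at Pola2, 67.0 kb at Mcm3, 127 kb at Pold1 and 176 kb at Mcm2. Rrm2 had 9.0 kb in the old list and 5.0 kb in the young list. Pole had a region of 15.0 kb in the young list alone, which ended 338 bases before its start.

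Among the 13 genes with H3K27me3 in old cells, both young RNA libraries lay above all old ones in 7, and among the 28 without it in 14. The median log2 change was -1.37 with the mark and -0.71 without it. Levels were lower with the mark, at a median of 1.59 TPM in old and 4.28 TPM in young cells, against 3.34 TPM in old and 6.03 TPM in young cells without it. E2f7, which had the mark in the old list, had 2.52 ± 0.898 CPM in old (SD, n = 3) and 13.3 ± 4.48 CPM in young cells (SD, n = 2).

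H3K4me1, a mark of enhancers and promoter flanks, lay within 1 kb of 32 starts in old cells and 39 in young cells. These shares of 78.0% and 95.1% were above the 39.5% and 58.8% of tested genes and the 29.9% and 45.5% of all gene starts. No peak covered the start itself at either age, where 0.87% of tested genes had such a peak in old and 1.9% in young cells. The median peak was 121 bases wide in the old list and 127 in the young one. With peaks that narrow, the absence of a covering peak tells little about these genes. The starts without a young peak were Mcm2 and Orc6, and 8 of the 41 genes had a peak in young cells alone, where 24.9% of tested genes did. The old list holds 36207 peaks and the young one 77291, so a peak in the young list alone is a weak statement about a gene.

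H3K27ac, a mark of active promoters and enhancers, was mapped in young cells alone and lay within 1 kb of 12 of the 41 starts (29.3%), fewer than the 48.8% of tested genes. The 12 were Brca1, Ccne2, E2f1, E2f7, Fen1, Mcm4, Mcm7, Orc1, Orc6, Pcna, Pola2 and Rfc4. They include all 3 genes with more RNA in every old than in every young library, Pcna, Fen1 and E2f1. Both young libraries lay above all old ones in 5 of the 12 and in 16 of the 29 others. The median log2 change was -0.17 with H3K27ac and -1.24 without it, at young levels of 5.65 and 5.24 TPM. Pole and E2f8, called lower in old cells, had no H3K27ac within 5 kb of the start.

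**Figure D4:**
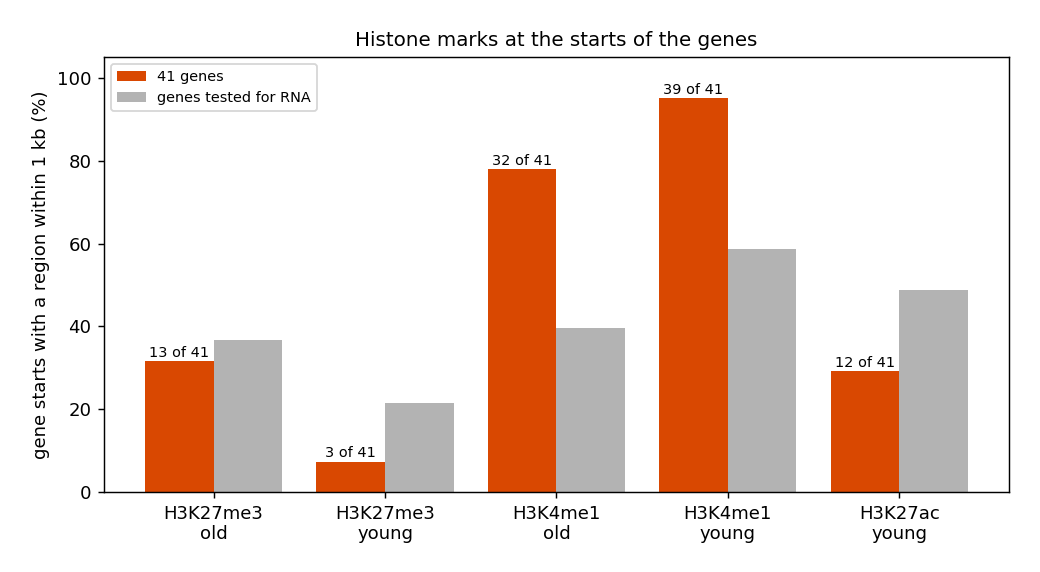
Share of gene starts (percent) with a deposited region within 1 kb, for the 41 genes (orange, with counts) and for genes tested for RNA (grey), by mark and age. For H3K4me1 the orange bars stand at 78.0% in old and 95.1% in young cells, against grey bars of 39.5% and 58.8%; for old H3K27me3 they are close, at 31.7% and 36.8%.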

How the data were processed

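Counts, deposited by the authors per RefSeq transcript, were compared with edgeR 4.0.16 (quasi-likelihood test, TMM, filterByExpr, two-sided, Benjamini-Hochberg) in R 4.3.3, with the most counted transcript standing for a gene. Tools named in the submitters' processing notes are edgeR, HOMER, STAR, Bowtie 0.12.7 and CASAVA 1.8.2, with build mm9. A second deposited table, a length-divided signal described as FPKM, repeated the shallower young library in the column of old library 3 and served only for positions and the length term behind TPM. CpG tables deposited by the authors give a methylated fraction with its coverage, and methylated calls were their product; median coverage was 18 reads in old and 16 in young cells. Peak and region scores deposited by the authors only ranked regions within a list, and the p-value column deposited in the H3K27me3 lists was not used. Alternatives were DESeq2, RLE factors, no filter, the first listed transcript, each library left out, coverage, window and call limits for CpGs, and flank and score limits for regions. The edgeR fit was tested on simulated data. The members, gene lists and tests were chosen with earlier results of these data known. Values per library are given for called genes, the MCM subunits and the most abundant gene of each role at each age; promoter values are given for the 5 largest methylation differences and widths for the H3K27me3 regions at starts; other genes named with values were chosen after these were seen. Of the 41 genes 6 overlap another gene, and reads of such pairs cannot be told apart. Input libraries were not used here.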

Additional observations from a re-analysis of the deposited data

How the results depend on the processing

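No paired analysis was possible because the young columns carry no replicate number. Genes called lower numbered 2 in the reported fit, 9 with DESeq2 and 1 to 8 with a library left out; RLE factors, no filter and the first listed transcript each gave 2. The median log2 change of the 41 genes ran from -1.30 to -0.59 with a library left out, the weakest without the deeper young library. With RLE factors the median over all tested genes was -0.17, against -0.05 with TMM. E2f8 was called under every RNA alternative. Of the 41 genes 26 kept the sign of their log2 change under every RNA alternative and 15 turned it at least once; the cause was not tested. With DESeq2 these were Orc6 (-0.03), Pola1 (-0.08) and Rfc3 (-0.03), with RLE factors the same genes (-0.03, -0.08 and -0.02), and without a filter Ccne2 (0.04) and Gins4 (0.004). With a library left out, log2 changes ran from -0.26 to 0.18 for Gins4, -0.82 to 2.37 for Pola1, -0.57 to 1.54 for Rrm2, -0.59 to 0.81 for Ccne2, -0.17 to 0.23 for Orc6, -0.34 to 0.74 for Rfc3, -0.95 to 0.42 for Ccne1, -1.10 to 0.49 for Chek1, -2.25 to 1.59 for E2f2, -0.92 to 0.44 for Mcm4, -1.40 to 1.43 for Pold1, -0.70 to 0.06 for Prim1 and -2.26 to 1.65 for Tk1. Among genes that kept their sign, Brca1 ran from -2.49 to -0.93, Cdk2 from -2.92 to -0.70, Mcm3 from -2.98 to -1.18, Pcna from 0.56 to 1.72, Prim2 from 0.17 to 0.94 and Rrm1 from -1.23 to -0.49. For Rfc4 (-0.78 to 8.05) and Gmnn (-0.19 to 8.59) the highest value is fitted against the shallower young library alone, which had no count of them. Of the 41 promoters 1 passed the methylation limit of 10 points in either direction, 2 in windows of 1000 bases and 9 at 5 points, where 9.92, 8.84 and 28.1% of all promoters did. H3K27me3 starts numbered 13 in old and 3 in young cells, 7 and 1 among the better-scored regions (those above the median score), 17 and 8 within 5 kb and 12 and 1 when the region had to cover the start, where tested genes gave 28.1 and 18.6%, 46.4 and 28.8%, and 34.6 and 18.7%; H3K27ac starts numbered 12 and, above the median score, 4 (31.4% of tested genes). Old and young groups of 3 and 2 RNA libraries and 1 library for each other assay limit what can be told.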
